A study of Phyllostachys edulis with 34 samples.

Results

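The comparison of abscisic acid (ABA) 3 h with CK 3 h used 6 libraries of moso bamboo (Phyllostachys edulis) leaves, 3 from each group, out of 34 libraries in 11 groups. Its members were fixed by the labels alone, namely the treatment ABA or CK together with the time point 3 h. The files list 59091 genes, and 36914 of them held enough counts in the 15 libraries taken at 3 h to be tested. The study treated seedlings grown in nutrient solution with 1 µM ABA, 25% polyethylene glycol (PEG, a drought treatment), 200 mM NaCl or 1 mM salicylic acid (SA), and sequenced poly-A RNA of young leaves after 3 h and 24 h. CK is read here as the seedlings left in nutrient solution without an added agent, although no label defines it. The ABA 3 h seedlings differed from the CK 3 h seedlings in the 1 µM ABA alone, as far as the labels say, and no genotype is named for either group. The 3 libraries of a group are biological replicates. The question was which genes, and which genes of lignin synthesis, differed in leaves after 3 h of ABA.

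ABA is the hormone that plants make under drought and salt, where it closes stomata and switches many genes on or off within hours. Lignin is a polymer of phenolic alcohols that stiffens and waterproofs the secondary cell wall. Phenylalanine enters the pathway through PAL, C4H and 4CL. The intermediates are then modified by HCT, C3H, CSE, CCoAOMT and F5H among others. CCR followed by cinnamyl alcohol dehydrogenase (CAD) reduces the products to the alcohols that are polymerized.

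The ABA 3 h libraries held 28153302 to 30953554 counts and the CK 3 h libraries 32579837 to 50659602. They stood apart from the rest of the series at the low end of the counts. The ABA 3 h libraries had 1967 to 2114 genes with 1 to 9 counts, against 4505 to 5259 in CK 3 h and 4192 to 5885 in the 31 libraries of all other groups. Genes listed at 0 numbered 24229 to 24816 in ABA 3 h, 18846 to 19755 in CK 3 h and 18205 to 22604 in all other libraries. Genes with at least 10 counts numbered 32308 to 32748 in ABA 3 h and 34104 to 35740 in CK 3 h. Where a gene is at 0, up to 3 counts remain possible, equal to 0.0909 to 0.0990 CPM (counts scaled to library size) in ABA 3 h and 0.0533 to 0.0821 in CK 3 h, counting error only. Whether low counts had been set to 0 in the ABA 3 h libraries before deposit was not tested, and a 0 could then stand for more than 3 counts. Because the low counts move with the group, the main numbers of genes are also given for well-counted genes. The leaf identity and the action of ABA were not checked here by marker genes, since the files pair no gene ID with a name.

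**Figure D1:**
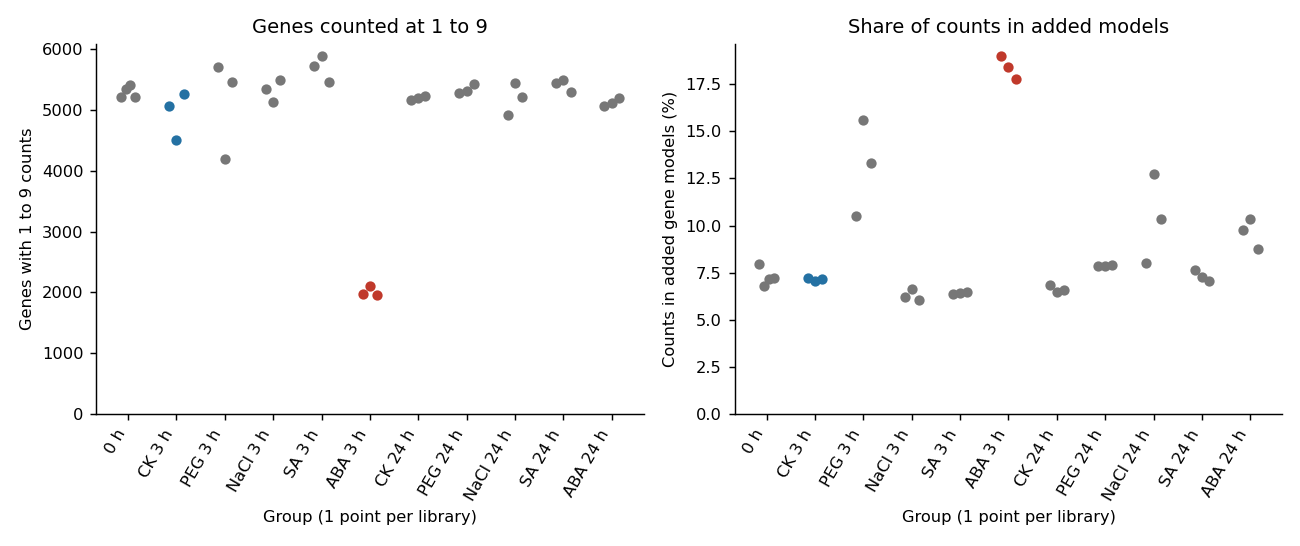
Genes with 1 to 9 counts (left) and the percentage of counts in gene models added by the authors to the annotation (right), 1 point for each of the 34 libraries, by group, with ABA 3 h in red and CK 3 h in blue. The 3 ABA 3 h libraries lie lowest on the left, at 1967 to 2114 genes, and highest on the right, at 17.8% to 18.97%.

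The replicates of ABA 3 h were less alike than those of CK 3 h. Over 16816 genes, Spearman's rho between replicates was 0.948 to 0.949 in ABA 3 h and 0.988 to 0.990 in CK 3 h, while rho between the groups was 0.797 to 0.810. These correlations run across genes, which are not independent replicates. The median standard deviation of a gene over replicates was 0.180 on the log2 CPM scale in ABA 3 h and 0.0750 in CK 3 h, with PEG 3 h, NaCl 3 h and SA 3 h at 0.143, 0.111 and 0.0813.

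After 3 h of ABA, 3698 genes rose and 3579 fell, together 7277 of the 36914 tested. That was 10% of the genes tested in the upward direction, 9.7% in the downward direction and 19.7% in both. The threshold was a Benjamini-Hochberg adjusted p under 0.05 in edgeR's quasi-likelihood test and a change of at least 2-fold. Without the fold criterion 15910 genes passed, 7616 of them higher and 8294 lower. The median log2 fold change over all genes tested was -0.05. The genes that rose did so by a median of 3.31-fold, from a median of 1.72 FPKM in CK 3 h to 5.58 FPKM in ABA 3 h. The genes that fell did so by a median of 3.40-fold, from 3.16 to 0.826 FPKM. FPKM is a fragment count scaled to transcript length and to the mapped reads of the library. On the log2(FPKM + 0.1) scale with limma the split was different, with 3055 genes higher and 5465 lower, so that 35.9% of called genes were higher in place of 50.8%. The median over all genes was then -0.23.

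The groups of 3 did not overlap, in normalised counts, for 3430 of the 3698 genes that rose and 3497 of the 3579 that fell. Over all genes tested, 23.5% lay wholly higher and 28.8% wholly lower in ABA 3 h. A fold of 16 or more was reached by 368 genes that rose and 905 that fell. Of the 905, 785 held 0 counts in all 3 ABA 3 h libraries, so that their fitted folds have no upper limit set by data.

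**Figure D2:**
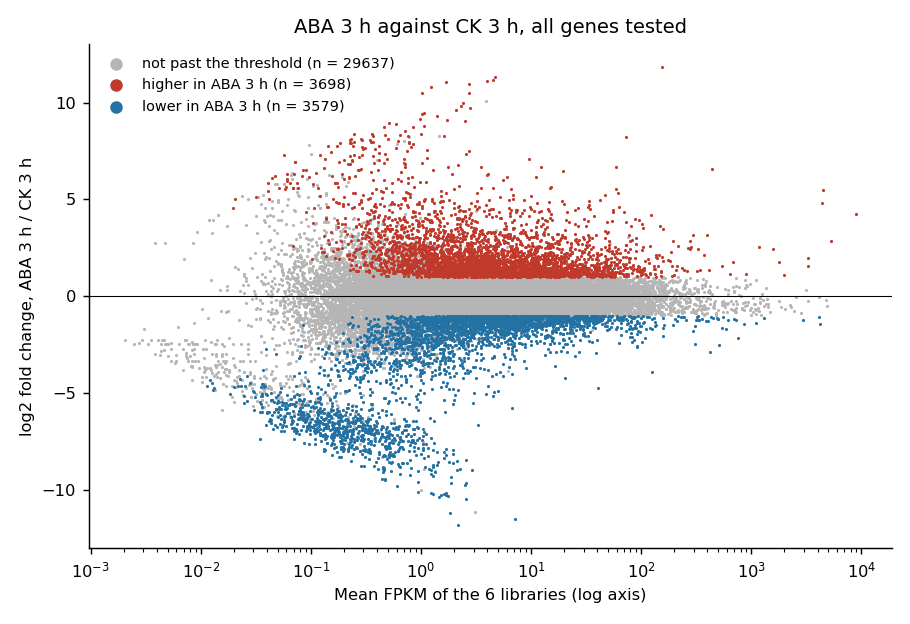
The log2 fold change of ABA 3 h against CK 3 h from edgeR (vertical axis) over the mean FPKM of the 6 libraries (horizontal log axis), 1 point for each gene tested with a mean above 0, red where higher and blue where lower past the threshold. Of the 905 lower genes at or below -4, 785 had 0 counts in ABA 3 h and form the separate band of blue points at low FPKM.

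In the edgeR test, genes below 1 FPKM fell more often than they rose and genes above it rose more often than they fell, while with limma on log2(FPKM + 1) at a mean of at least 1 FPKM fewer genes were higher (1866) than lower (2305), with a median of -0.14 over the genes tested. By edgeR, below 1 FPKM, 7.62% of 9058 genes rose and 14.1% fell. Between 1 and 10 FPKM the shares were 11.4% and 9.65% of 17663 genes. Between 10 and 100 FPKM they were 9.78% and 5.68% of 9455 genes, and at 100 FPKM or more 10.4% and 8.13% of 738 genes. Among the 23160 genes with a mean of at least 100 counts over the 15 libraries, a restriction chosen after the low counts had been seen, 2490 rose (10.8%) and 1708 fell (7.37%). With every count under 10 set to 0 in all 15 libraries, 3342 genes rose and 2864 fell. Of the 3579 genes that fell, 785 held 0 counts in all 3 ABA 3 h libraries, and of the 3698 that rose, 124 held 0 counts in all 3 CK 3 h libraries.

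**Figure D3:**
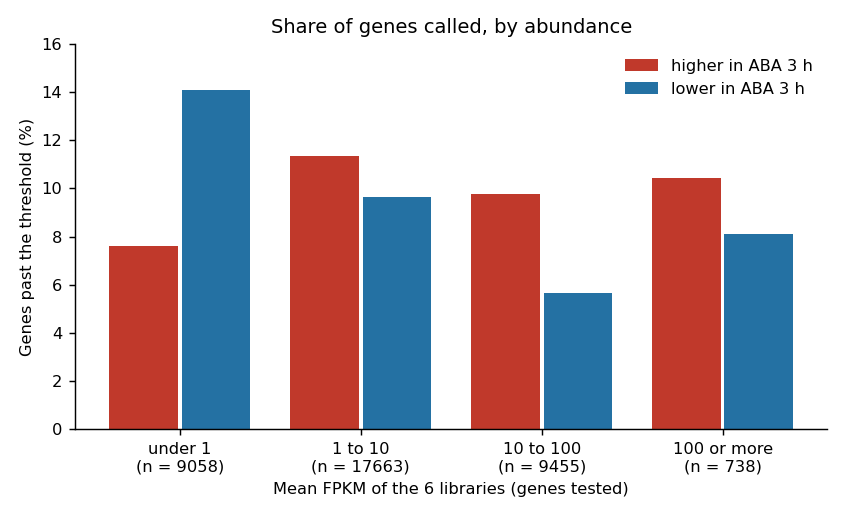
Percentage of genes tested that passed the threshold of the edgeR test in ABA 3 h against CK 3 h, higher in red and lower in blue, by the mean FPKM of the 6 libraries, with the number of genes under each pair of bars. Of the 4 bins, lower genes exceed higher genes only below 1 FPKM, at 14.1% against 7.62%, whereas limma on log2(FPKM + 1) called more lower (2305) than higher (1866) genes also at a mean of at least 1 FPKM.

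A few transcripts took a far larger share of the counts in ABA 3 h than in CK 3 h. The most abundant gene of a library took 3.91% to 5.89% of its counts in ABA 3 h and 1.35% to 1.39% in CK 3 h. The 10 genes of highest mean FPKM in ABA 3 h took 11.9% to 12.95% of the counts there and 2.55% to 2.73% in CK 3 h. The same 10 genes took 4.97% to 8.92% in PEG 3 h, 1.60% to 1.82% in NaCl 3 h and 1.68% to 1.74% in SA 3 h. They were chosen on the ABA 3 h libraries, so the rise of 6 of them past the threshold, beside 10% of all genes tested, is a description. Of the 10, 8 were gene models that the authors had added to the annotation, and the added models together took 17.8% to 18.97% of the counts in ABA 3 h and 7.07% to 7.24% in CK 3 h. In number the added models differed less, with 12.7% of 5343 tested rising and 11.5% falling, beside 9.56% and 9.38% of the 31571 other models.

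The first of these transcripts stood at 17431, 19605 and 13655 FPKM in the ABA 3 h libraries and at 1151, 662 and 1078 FPKM in CK 3 h. The groups lay far apart, and the edgeR log2 fold change was 4.25 ± 0.28 (SE, adjusted p = 9.85e-09). Each SE given here was approximated from the test's F statistic, as the absolute log2 fold change divided by its root. The gene models most abundant in CK 3 h moved the other way or little. The first in CK 3 h stood at 6358, 6316 and 6170 FPKM there and at 2094, 2191 and 2157 FPKM in ABA 3 h, a log2 fold change of -1.42 ± 0.10 (edgeR, adjusted p = 2.64e-08). Of the 10 most abundant genes in CK 3 h, 3 fell past the threshold, beside 9.7% of all genes tested. They were chosen on the CK 3 h libraries, so their falls are likewise a description.

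Among genes without a name, the largest changes with groups that did not overlap were from or to a level at or near 0. PH02Gene36010 was listed at 0 in the 3 CK 3 h libraries and at 7.86, 11.1 and 9.52 FPKM in ABA 3 h, at least 133-fold higher with the CK libraries set to 3 counts each (edgeR, adjusted p = 0.0193). It was also at 0 in 2 of the 3 libraries of PEG 3 h and of NaCl 3 h and at 7.30 and 6.81 FPKM in the third of each. The call was lost without CK 3 h replicate 1 (edgeR, adjusted p = 0.0506) or replicate 2 (0.0558).

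Phyllostachys_edulis_newGene_28956 stood at 851, 41.5 and 39.0 FPKM in ABA 3 h and at 0, 0.111 and 0 FPKM in CK 3 h. All ABA libraries lay above all CK libraries, but 1 ABA library was far above the others. The PEG 3 h libraries stood at 0.0645, 397 and 9.84 FPKM, so that 1 of them exceeded 2 of the 3 ABA libraries, and NaCl 3 h and SA 3 h were listed at 0. The log2 fold change of 11.85 ± 2.75 (edgeR, adjusted p = 0.00436) became 9.81 without ABA 3 h replicate 1 and 17.60 without CK 3 h replicate 2.

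PH02Gene08472 went the other way, from 3.65, 3.64 and 3.63 FPKM in CK 3 h to 0 in the 3 ABA 3 h libraries, at least 91.0-fold lower (edgeR, adjusted p = 3.13e-09). It was also at 0 in the 3 PEG 3 h libraries, while NaCl 3 h and SA 3 h averaged 3.89 and 3.58 FPKM. PH02Gene05328 stood at 5.11, 4.95 and 5.23 FPKM in CK 3 h and at 0 in ABA 3 h, at least 55.4-fold lower (edgeR, adjusted p = 1.25e-07). It was intermediate in the other treatments, with means of 1.66, 1.70 and 0.653 FPKM in PEG 3 h, NaCl 3 h and SA 3 h. Both bounds set each ABA library to 3 counts and would not hold if larger counts had been set to 0 there. In all, 412 genes were at 0 in ABA 3 h with at least 10 counts in each CK 3 h library, and 34 genes were at 0 in CK 3 h with at least 10 counts in each ABA 3 h library. The 412 genes move with the shortage of low counts in ABA 3 h, whose part in them was not tested.

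Of the 160 lignin genes that the study lists, 158 were found in the files and 117 were tested. ABA raised 31 of the 117 (26.5%) and lowered 6 (5.13%), beside 10% and 9.7% of all genes tested. The median log2 fold change of the 117 was 0.25, beside -0.05 over all genes tested. Among well-counted genes, with a mean of at least 100 counts, 26 of 87 rose and 3 fell, beside 10.8% and 7.37% of all genes of that kind. On the FPKM scales with limma, 27 rose and 14 fell with a pseudocount of 0.1, and 23 rose and 3 fell with a pseudocount of 1. Of all genes called on these scales, 35.9% and 43.5% were higher, in the same order. The number of genes that fell was 10 without ABA 3 h replicate 1. The sources place 5 of the listed genes in different families in different places, and the table's family was used. Paralogs of a family are often near copies, and no source used here says how reads matching several of them were counted, so values of neighbouring copies are uncertain.

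**Figure D4:**
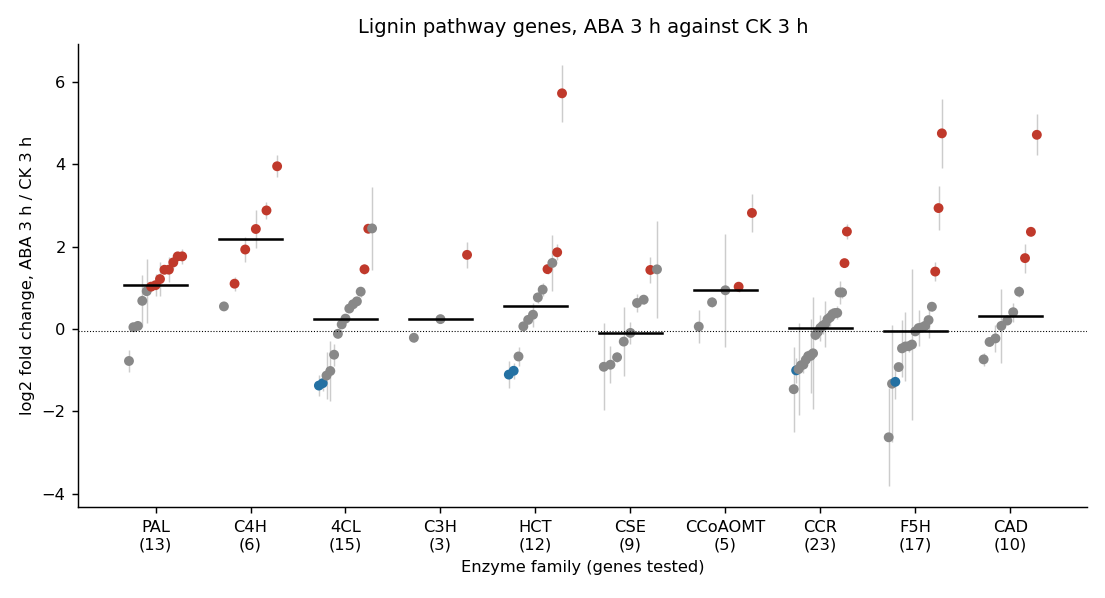
The log2 fold change of ABA 3 h against CK 3 h from edgeR for lignin genes tested in the families described, with SE bars, red where higher and blue where lower past the threshold. Black lines are family medians and the dotted line is the median of all genes tested at -0.05. PAL and C4H have medians of 1.06 and 2.18.

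Of the entry steps of the pathway, PAL and C4H rose past the threshold in most of their tested genes in the main test and 4CL did not. PAL, phenylalanine ammonia-lyase, which takes the amino group from phenylalanine, rose in 8 of 13 genes tested and fell in 0. Over all genes tested the shares were 10% and 9.7%, and the median log2 fold change of PAL was 1.06. The summed level of the family was 152, 155 and 146 FPKM in the CK 3 h libraries and 235, 244 and 241 FPKM in ABA 3 h, without overlap. With limma on the FPKM scales 4 or 5 PAL genes rose, and 1 fell with a pseudocount of 0.1. Of all genes called on these scales, 35.9% to 44.7% were higher. Of the 13, 6 rose with all 34 libraries, without CK 3 h replicate 1, or without ABA 3 h replicate 3, where 1 also fell. PH02Gene30509 carried most of the difference. It stood at 24.7, 27.5 and 25.9 FPKM in CK 3 h and at 77.1, 82.2 and 82.4 FPKM in ABA 3 h, a log2 fold change of 1.76 ± 0.10 (edgeR, adjusted p = 1.48e-09). PH02Gene27013 changed by the same factor at a lower level, from 1.59 to 1.91 FPKM in CK 3 h to 4.76 to 6.61 FPKM in ABA 3 h (log2 fold change 1.76 ± 0.19, edgeR, adjusted p = 1.63e-06). The other 6 that rose were PH02Gene23137, PH02Gene27012, PH02Gene08453, PH02Gene30508, PH02Gene40449 and PH02Gene30511, with log2 fold changes of 1.03 to 1.61. The PAL gene of highest level in CK 3 h did not pass. PH02Gene27016 stood at 52.6, 52.7 and 47.4 FPKM in CK 3 h and 47.4, 51.3 and 45.1 FPKM in ABA 3 h, and the groups overlapped. Without the fold criterion 1 PAL gene, PH02Gene23138, passed in the downward direction, at a log2 fold change of -0.78 ± 0.26.

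C4H, the cytochrome P450 that hydroxylates cinnamic acid, rose in 5 of 6 genes and fell in 0, beside 10% and 9.7% of all genes tested. Its median log2 fold change was 2.18. Against CK 3 h, 5 C4H genes also rose in each of PEG 3 h, NaCl 3 h and SA 3 h. The shares over all genes tested were 13.2%, 10.8% and 14.4%. In SA 3 h 1 C4H gene fell, beside 13.6% of all genes tested. The gene with the largest rise was PH02Gene44264. Its level was 1.05, 0.580 and 1.22 FPKM in CK 3 h and 12.1, 15.5 and 11.9 FPKM in ABA 3 h, 15.4-fold higher (log2 fold change 3.95 ± 0.27, edgeR, adjusted p = 1.14e-08). PH02Gene41975 rose from 1.35 to 1.61 FPKM in CK 3 h to 8.33 to 11.3 FPKM in ABA 3 h (log2 fold change 2.87 ± 0.21). Neither gene overlapped between the groups, and both began from a low level. Most C4H transcript came from PH02Gene03697 in both groups, at 101, 99.2 and 94.7 FPKM in CK 3 h and 127, 133 and 135 FPKM in ABA 3 h. Its log2 fold change of 0.55 ± 0.09 (edgeR, adjusted p = 2.03e-04) was under the 2-fold criterion.

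4CL, which activates the cinnamic acids with coenzyme A, rose in 2 of 15 genes and fell in 2, or 13.3% each way, beside 10% and 9.7% of all genes tested. PH02Gene22533 rose from 6.32, 6.15 and 6.72 FPKM in CK 3 h to 31.9, 31.8 and 30.98 FPKM in ABA 3 h (log2 fold change 2.43 ± 0.11, edgeR, adjusted p = 1.10e-10). PH02Gene34989 rose from 3.52 to 3.63 FPKM to 7.05 to 10.2 FPKM (log2 fold change 1.45 ± 0.12). The groups did not overlap in either gene. PH02Gene24626 fell from 6.58, 6.26 and 5.70 FPKM to 2.19, 1.21 and 3.13 FPKM, by 1.37 ± 0.26 on the log2 scale (edgeR, adjusted p = 4.84e-04), and PH02Gene42739 fell from 2.92 to 3.46 FPKM to 0.904 to 1.33 FPKM, by 1.32 ± 0.20. The other 11 of the 15 tested did not pass. Among them PH02Gene26838, the 4CL gene of highest level in CK 3 h, stood at 59.9 to 66.4 FPKM in CK 3 h and 90.1 to 94.2 FPKM in ABA 3 h, a log2 fold change of 0.67 ± 0.08. Without the fold criterion 6 of the 4CL genes passed as higher and 2 as lower, beside 7616 and 8294 of the 36914 genes tested. The summed level of the family was 210 to 223 FPKM in CK 3 h and 293 to 307 FPKM in ABA 3 h, without overlap.

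HCT, which joins the activated acid to shikimate, held the largest fold change of the pathway. PH02Gene48286 was at 0.0931, 0 and 0.180 FPKM in CK 3 h and at 5.92, 3.65 and 3.54 FPKM in ABA 3 h (log2 fold change 5.72 ± 0.69, edgeR, adjusted p = 6.24e-06). All ABA libraries lay above all CK libraries, but the fold rests on near absence in CK 3 h and ran from 5.03 without CK 3 h replicate 2 to 6.65 without CK 3 h replicate 3, on the log2 scale. PH02Gene25625 rose from 3.11, 3.38 and 3.43 FPKM to 11.8, 11.3 and 9.86 FPKM (log2 fold change 1.86 ± 0.19, edgeR, adjusted p = 1.38e-06). PH02Gene48963, one of the genes given different families in the sources, rose as well (log2 fold change 1.45 ± 0.11). PH02Gene19041 and PH02Gene19042 fell by 1.01 ± 0.20 and 1.11 ± 0.33, just past the criterion. PH02Gene19042 lost the call without ABA 3 h replicate 2, and PH02Gene19041 without ABA 3 h replicate 3 or CK 3 h replicate 2 and with DESeq2's size factors. With all 34 libraries 0 HCT genes fell, so that both lost the call. Over the alternatives 0 to 2 HCT genes fell. The HCT gene of highest level, PH02Gene24931, stood at 95.9 to 105 FPKM in CK 3 h and 104 to 109 FPKM in ABA 3 h. The remaining 7 of the 12 tested did not pass. In all, 3 HCT genes rose (25%) and 2 fell (16.7%), beside 10% and 9.7% of all genes tested.

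C3H, the P450 that hydroxylates the shikimate ester, rose in 1 of 3 genes (33.3%), beside 10% of all genes tested. PH02Gene02368 went from 2.17, 1.84 and 1.28 FPKM to 3.10, 6.69 and 7.12 FPKM (log2 fold change 1.80 ± 0.32, edgeR, adjusted p = 3.02e-04). Its level was small beside PH02Gene03849, which made up most of the family at 161 to 165 FPKM in CK 3 h and 126 to 132 FPKM in ABA 3 h and did not pass (log2 fold change -0.21 ± 0.10). CSE, the esterase that frees caffeic acid, rose in 1 of 9 genes (11.1%), near the 10% of all genes tested. This was PH02Gene14766, at 1.32, 0.951 and 1.31 FPKM in CK 3 h and 1.24, 3.96 and 3.61 FPKM in ABA 3 h, where the FPKM values of the groups overlapped (log2 fold change 1.43 ± 0.32, edgeR, adjusted p = 0.00203). The main CSE gene, PH02Gene34362, stood at 103 to 117 FPKM in CK 3 h and 157 to 168 FPKM in ABA 3 h, a log2 fold change of 0.71 ± 0.10 that was under the 2-fold criterion.

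CCoAOMT methylates caffeoyl-CoA on the way to guaiacyl lignin. PH02Gene31245 rose from 0.540, 0.780 and 0.484 FPKM in CK 3 h to 2.92, 4.46 and 4.48 FPKM in ABA 3 h (log2 fold change 2.81 ± 0.45, edgeR, adjusted p = 1.20e-04). PH02Gene07558 rose from 42.9, 36.9 and 40.8 FPKM to 73.3, 69.9 and 80.7 FPKM (log2 fold change 1.02 ± 0.12, edgeR, adjusted p = 3.82e-06). The groups did not overlap in either gene. PH02Gene07558 was close to the criterion and fell below it without ABA 3 h replicate 3 (0.96) or CK 3 h replicate 2 (0.96).

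CCR, which reduces the coenzyme A esters to aldehydes, rose in 2 of 23 genes (8.70%) and fell in 1 (4.35%), below the 10% and 9.7% of all genes tested. PH02Gene42850 rose from 20.4, 20.8 and 20.5 FPKM to 56.9, 59.7 and 54.2 FPKM (log2 fold change 1.60 ± 0.09, edgeR, adjusted p = 2.35e-09). PH02Gene20528 rose from 3.52, 4.13 and 3.84 FPKM to 17.3, 14.8 and 22.2 FPKM (log2 fold change 2.36 ± 0.18, edgeR, adjusted p = 3.52e-08). In both genes every ABA library exceeded every CK library at least 2-fold. PH02Gene28140 fell by 1.00 ± 0.30, from 4.62 to 6.15 FPKM to 1.31 to 3.57 FPKM. It lost the call without ABA 3 h replicate 2 or 3 or CK 3 h replicate 3 and with DESeq2's size factors. With DESeq2, only the 2 groups compared, limma on log2(FPKM + 1) or a mean of at least 100 counts, 0 CCR genes fell. The CCR gene of highest level, PH02Gene04629, stood at 98.8 to 105 FPKM in CK 3 h and 49.1 to 52.03 FPKM in ABA 3 h. Its log2 fold change of -0.88 ± 0.08 (edgeR, adjusted p = 2.26e-07) was outside the 2-fold criterion, and it passed with limma on log2(FPKM + 0.1), at -1.01.

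F5H, the P450 that opens the syringyl branch, rose in 3 of 17 genes tested (17.6%) and fell in 1 (5.88%), beside 10% and 9.7% of all genes tested. A further 16 of its 33 genes were too low to test. PH02Gene38755 rose from 0.104, 0.0164 and 0 FPKM to 0.966, 1.57 and 0.763 FPKM (log2 fold change 4.74 ± 0.84, edgeR, adjusted p = 2.87e-04), a value that was 6.67 without CK 3 h replicate 1. PH02Gene36673 rose from 0.528, 0.683 and 0.650 FPKM to 4.98, 2.29 and 5.80 FPKM (log2 fold change 2.93 ± 0.54). PH02Gene39460 fell by 1.28 ± 0.42, from 1.77 to 2.82 FPKM to 0.475 to 1.44 FPKM, and was -1.88 without ABA 3 h replicate 1. It lost the call without ABA 3 h replicate 2 or 3 or CK 3 h replicate 2 or 3, and with only the 2 groups compared. All of these genes were low. The F5H gene of highest level, PH02Gene18881, stood at 98.2 to 101 FPKM in CK 3 h and 45.6 to 49.5 FPKM in ABA 3 h, a log2 fold change of -0.92 ± 0.06 just under the 2-fold criterion, and passed with limma on the FPKM scales. The summed level of the family was 241 to 253 FPKM in CK 3 h and 196 to 200 FPKM in ABA 3 h.

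CAD makes the monolignols, and 14 CAD genes are listed as PheCAD1 to PheCAD14. Of the 10 tested, 3 rose (30%) and 0 fell, beside 10% and 9.7% of all genes tested. PheCAD3 rose from 31.2, 31.6 and 31.9 FPKM in CK 3 h to 162, 137 and 144 FPKM in ABA 3 h (log2 fold change 2.36 ± 0.11, edgeR, adjusted p = 2.23e-10). It became the CAD gene of highest level in ABA 3 h, above PheCAD8 and PheCAD12, which were the highest in CK 3 h. PheCAD5 rose from 0.431, 0.209 and 0.270 FPKM to 3.13, 9.27 and 9.91 FPKM (log2 fold change 4.71 ± 0.50, edgeR, adjusted p = 1.75e-06). The 3 ABA libraries lay above CK but were uneven. PheCAD3 and PheCAD5 have consecutive identifiers, PH02Gene38470 and PH02Gene38471, and the division of reads between them was not tested. PheCAD14 rose from 1.93, 2.01 and 1.17 FPKM to 2.36, 6.48 and 6.70 FPKM (log2 fold change 1.72 ± 0.35, edgeR, adjusted p = 0.00101).

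The study made constructs of PheCAD1, PheCAD2 and PheCAD8. The first bases of their coding sequences, as carried by the study's forward cloning primers, are shown to identify these genes, with the start codon in capitals and the vector part left out.
PheCAD1: ATGgctgctgaatgcgag
PheCAD2: ATGggcagcctcgcttcg
PheCAD8: ATGgagcaaggcaaggc

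PheCAD2 stood at 18.9, 18.9 and 18.6 FPKM in CK 3 h and at 30.7, 30.7 and 35.2 FPKM in ABA 3 h. The groups did not overlap, and the log2 fold change of 0.90 ± 0.13 (edgeR, adjusted p = 3.65e-05) was under the 2-fold criterion. PheCAD1 stood at 19.6, 20.4 and 19.8 FPKM in CK 3 h and at 12.7, 8.29 and 11.7 FPKM in ABA 3 h (log2 fold change -0.74 ± 0.16, edgeR, adjusted p = 0.00133). PheCAD8 stood at 62.9, 57.6 and 62.8 FPKM in CK 3 h and at 44.8, 44.9 and 44.9 FPKM in ABA 3 h (log2 fold change -0.32 ± 0.09, edgeR, adjusted p = 0.0111). Both were lower in every ABA library than in any CK library, and neither passed the 2-fold criterion. PheCAD12 at 41.9 to 46.8 and 44.3 to 50.9 FPKM, PheCAD13 at 3.00 to 4.28 and 3.52 to 4.89 FPKM and PheCAD4 at 2.80 to 3.35 and 1.27 to 3.37 FPKM overlapped in FPKM between CK 3 h and ABA 3 h. In normalised counts PheCAD12 was higher in every ABA library than in any CK library, at a log2 fold change of 0.20 ± 0.09. PheCAD11 was at 0.324 to 0.546 FPKM in CK 3 h and at 1.07, 0.145 and 0 FPKM in ABA 3 h. Without ABA 3 h replicate 1 it passed as lower, at a log2 fold change of -2.37 (edgeR, adjusted p = 0.0301). PheCAD6, PheCAD7, PheCAD9 and PheCAD10 were too low to test, at no more than 0.232 FPKM in any of the 6 libraries. The summed level of the CAD genes was 181 to 189 FPKM in CK 3 h and 295 to 310 FPKM in ABA 3 h, a ratio of 1.63. PheCAD3 carried nearly all of the difference. The mean sum was 185 FPKM in CK 3 h and 303 FPKM in ABA 3 h, and PheCAD3 alone averaged 31.6 and 148 FPKM.

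**Figure D5:**
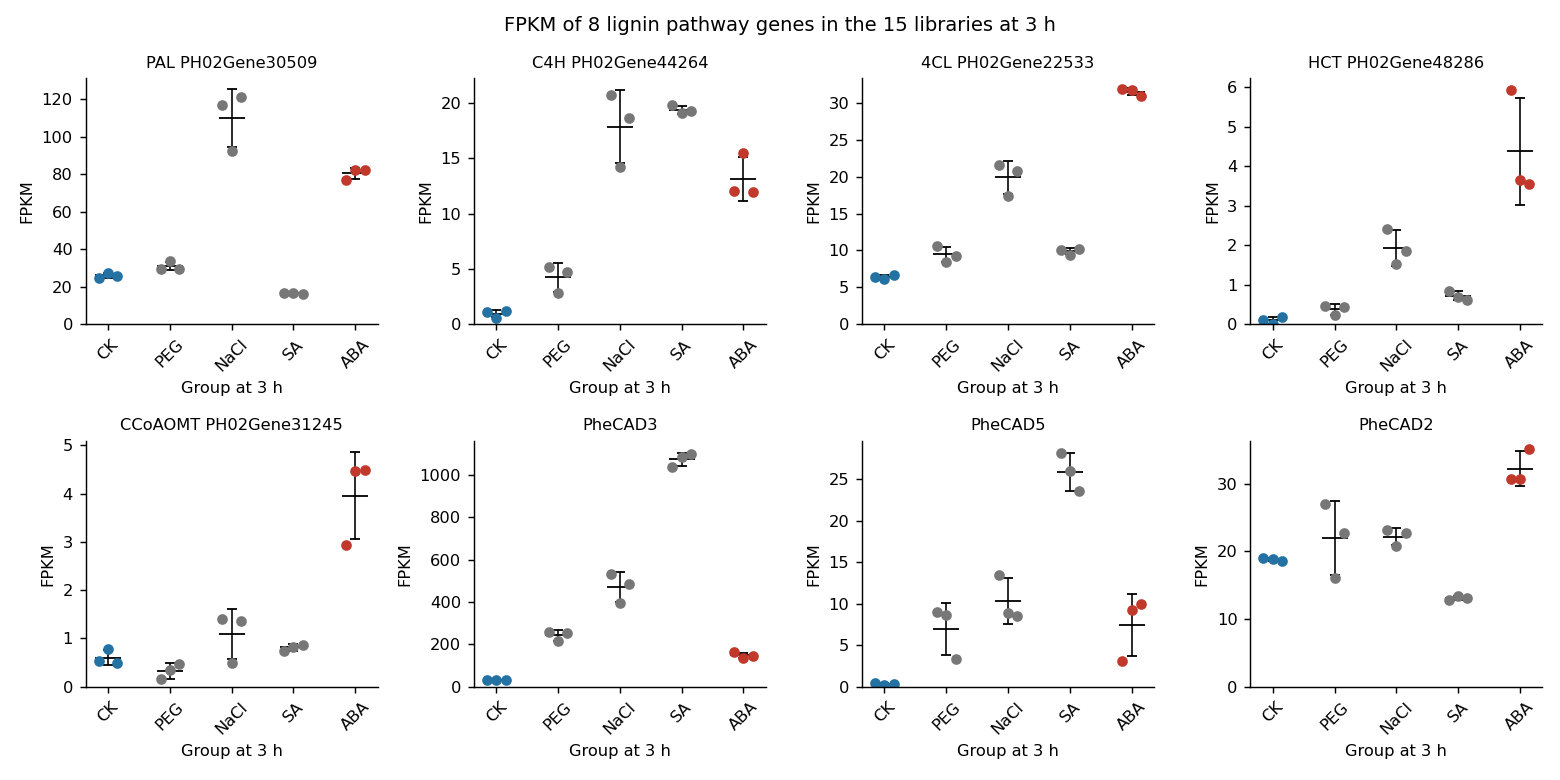
FPKM of 8 lignin genes (PAL, C4H, 4CL, HCT, CCoAOMT and 3 CAD genes) in the 15 libraries at 3 h, 1 point for each library by group, with the mean and SD in black, CK in blue and ABA in red. In each panel the 3 ABA points lie above the 3 CK points. All points lie above those of ABA for the PAL gene in NaCl, the C4H gene and PheCAD5 in SA, and PheCAD3 in PEG, NaCl and SA.

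The other treatments at 3 h were set beside ABA to show where it differed. Those comparisons share the CK 3 h libraries with the ABA comparison, or share the ABA 3 h libraries with each other. Against PEG 3 h, 2790 genes were higher in ABA 3 h (7.56%) and 3708 lower (10%). Against NaCl 3 h, 4063 were higher (11%) and 4639 lower (12.6%), and against SA 3 h 5889 were higher (16%) and 6237 lower (16.9%). The ABA 3 h libraries were nearest to those of PEG 3 h, with a Spearman's rho of 0.820 to 0.837 across genes.

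Genes past the threshold in the same direction against CK 3 h and against each of the 3 other treatments numbered 446 higher (1.21% of all genes tested) and 737 lower (2%) in ABA 3 h. Of the 737, 416 held 0 counts in all 3 ABA 3 h libraries. Among genes with a mean of at least 100 counts the numbers were 286 higher and 180 lower, and with counts under 10 set to 0 in all libraries they were 362 and 462.

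Of the 117 lignin genes tested, 3 were higher in ABA 3 h than in CK 3 h and in every other treatment and 1 was lower, numbers too small to set apart from the 1.21% and 2% of all genes. The CCR gene PH02Gene42850 averaged 20.5 FPKM in CK 3 h and 56.9 FPKM in ABA 3 h, and 18.9, 8.15 and 11.6 FPKM in PEG 3 h, NaCl 3 h and SA 3 h. The CCoAOMT gene PH02Gene31245 averaged 3.96 FPKM in ABA 3 h, and 0.329, 1.08 and 0.813 FPKM in PEG 3 h, NaCl 3 h and SA 3 h. The F5H gene PH02Gene36673 averaged 4.36 FPKM in ABA 3 h, and 0.135, 1.18 and 0.726 FPKM in the same 3 treatments. The 4CL gene PH02Gene24626 was lower in ABA 3 h than in all of them, at a mean of 2.18 FPKM against 5.07 to 5.60 FPKM in the 3 treatments.

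The 3 CAD genes that rose with ABA differed in where they were highest. PheCAD3 averaged 148 FPKM in ABA 3 h, 242 FPKM in PEG 3 h, 471 FPKM in NaCl 3 h and 1074 FPKM in SA 3 h, and was below NaCl 3 h and SA 3 h past the threshold. PheCAD5 averaged 7.44 FPKM in ABA 3 h, 6.98 FPKM in PEG 3 h, 10.3 FPKM in NaCl 3 h and 25.9 FPKM in SA 3 h, and was below SA 3 h past the threshold. PheCAD14 had its highest mean in ABA 3 h, at 5.18 FPKM, with 3.40, 2.82 and 2.32 FPKM in PEG 3 h, NaCl 3 h and SA 3 h, none of them different from ABA 3 h past the threshold. PheCAD2 was highest in ABA 3 h, at 32.2 ± 2.58 FPKM (SD, n = 3), with means of 21.9, 22.2 and 13.1 FPKM in PEG 3 h, NaCl 3 h and SA 3 h, and the difference from SA 3 h alone passed. Against CK 3 h, PEG raised 30 lignin genes and lowered 6, beside 13.2% and 11.3% of all genes tested (24.5% in both directions). NaCl raised 31 and lowered 15, beside 10.8% and 8.74% (19.6% in both), and SA raised 24 and lowered 23, beside 14.4% and 13.6% (28% in both). In the direct comparisons, whose shares over all genes are given above (17.6%, 23.6% and 32.8% in both directions against PEG 3 h, NaCl 3 h and SA 3 h), 20 were higher and 14 lower in ABA 3 h than in PEG 3 h, 15 higher and 12 lower than in NaCl 3 h, and 40 higher and 17 lower than in SA 3 h. The last of these was the most uneven split, and PAL contributed 8 of the 40 and 0 of the 17.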

How the data were processed

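Libraries of young leaves were grouped by the labels. The authors deposited raw counts per gene without normalization, and FPKM values that the authors computed. HISAT2 and DESeq2 stand in the submitters' processing notes with no version or role. The counter, genome build and annotation were not given in the sources used here. Counts were analysed in R 4.3.3 with edgeR 4.0.16. Genes were filtered with filterByExpr, normalised by TMM, and fitted by quasi-likelihood, with 1 mean per group, to the 15 libraries at 3 h. The other 19 libraries were left out of that fit, because 1 library labelled 0 h lies apart from its group. P-values rest on a spread between replicates that was estimated for each gene over the 15 libraries together, with information shared across genes. They do not measure the spread of the ABA 3 h or CK 3 h libraries alone. The threshold was a Benjamini-Hochberg adjusted p under 0.05 and at least 2-fold. Alternatives used limma 3.58.1 on log2(FPKM + 0.1 or 1), DESeq2 1.42.0 and its size factors, no filter, all 34 libraries, all but the library labelled 0 h, replicate 1, only the 2 groups compared, a replicate block, no fold criterion and each library left out. Setting counts under 10 to 0 and keeping genes with a mean of at least 100 counts were chosen after seeing the data. No library of ABA 3 h or CK 3 h was identical to another of these groups. Plots were made with Python 3.11.15 and matplotlib 3.10.9.

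The libraries follow from the labels, but this comparison, its named genes and its lists were chosen with earlier results of these data known. Lignin genes and families come from the study's own list. Some of the listed genes are counted in the totals but are not reported here, whatever the rule that follows would name. Named genes are all 14 PheCAD genes; in each other family up to 2 largest rises and 2 largest falls past the threshold and the member of highest mean FPKM in CK 3 h; and 2 unannotated genes in each direction with groups that do not overlap and a mean of at least 1 FPKM in the higher group. Genes named outside this rule, such as the other PAL genes and the most abundant transcripts, were chosen after their values were seen.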

Additional observations from a re-analysis of the deposited data

How the results depend on the processing

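For ABA 3 h against CK 3 h, the counts of genes and of lignin genes past the threshold stayed within 1.5 times of the main counts with DESeq2, DESeq2's size factors, no filter, all 34 libraries, all but the library labelled 0 h, replicate 1, and only the 2 groups compared. Without the fold criterion, 15910 genes passed (7616 higher, 8294 lower), 65 of them lignin genes (48 higher, 17 lower), and 14192, 17320 and 20283 passed against PEG 3 h, NaCl 3 h and SA 3 h. With limma on log2(FPKM + 0.1), 5465 genes and 14 lignin genes were lower. On log2(FPKM + 1), 4461 genes passed, 1942 of them higher, and 3 lignin genes were lower. With a minimum mean of 1 FPKM there, 4171 genes passed (1866 higher, 2305 lower), and 3 lignin genes were lower. Of the alternatives chosen after seeing the data, a mean of at least 100 counts left 4198 genes (1708 lower), 3 lignin genes lower, and 286 higher and 180 lower beyond CK 3 h and every treatment. With counts under 10 set to 0, 462 genes were lower in that sense. The causes were not tested, other than that fewer genes enter the test under a minimum.

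With 1 of the 6 libraries left out, 6439 to 8128 genes passed, and 4 to 10 lignin genes were lower, 10 without ABA 3 h replicate 1. Single genes that had not passed in the main test changed sign. PheCAD11 was 0.07 in the main test, -0.74 and -0.088 with limma and pseudocounts of 0.1 and 1 FPKM, and -2.37 to 0.65 with a library left out. At -2.37, without ABA 3 h replicate 1, PheCAD11 passed the threshold as lower (edgeR, adjusted p = 0.0301). PH02Gene27016 was -0.087 with limma and a pseudocount of 0.1 and -0.085 in both forms with 1, and ranged from -0.011 to 0.081 with a library left out, and PheCAD4 ranged from -0.55 to 0.072. Of 44 named genes with a value, 9 that passed lost the call in at least 1 alternative.

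With the replicate number as a block, 7038 genes passed (3484 higher, 3554 lower), 37 of them lignin genes, and PheCAD11 was -0.45. The numbers were not taken to pair the libraries, since the correlations of the deviations of same-numbered libraries were 0.0545, 0.0342 and 0.0117, although each of the 3 libraries in either group correlated best with its own number.

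A count of 0 in ABA 3 h limits folds to bounds, which take a 0 as at most 3 counts in a library.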

Other observations

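Genes with neighbouring identifiers moved together more often than genes at large. Among the genes of the original annotation that rose in ABA 3 h, the gene with the next identifier was tested in 1958 cases and rose in 310 of them (15.8%), beside 9.26% of all genes that followed a tested gene. Among those that fell, the next gene fell in 223 of 1895 cases (11.8%), beside 9.46%. Runs reached 4 consecutive identifiers in either direction. No coordinates were used here, so that identifiers stand for order only, and neighbouring copies of a gene can share reads. Lignin genes with consecutive identifiers include the CCR genes PH02Gene04629, PH02Gene04630 and PH02Gene04631, which were named after their values were seen. Their log2 fold changes in ABA 3 h against CK 3 h were -0.88, -0.75 and -0.66, none past the 2-fold criterion. Not all lignin genes with consecutive identifiers moved together. The PAL genes PH02Gene23137 and PH02Gene23138 stood at 1.03 and -0.78, and the F5H genes PH02Gene18881 and PH02Gene18882 at -0.92 and 0.08. These pairs were likewise chosen after their values were seen.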
